A study of Mus musculus with 9 samples.

Results

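The 43 genes described here encode collagen alpha chains, out of 22851 genes counted in the mouse heart. They are every gene of the count matrix whose symbol is Col, a number, a and a number and nothing more, and they fall into 11 fibrillar, 8 basement membrane, 9 fibril-associated and 15 other chains. Col10a1 was not analysed here. The 31 identifiers that GENCODE M21 does not name could not be checked against the rule.

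Heart RNA was sequenced in 9 libraries, 3 from each of 3 groups of male C57BL/6J mice that were 6 to 8 weeks old at the start. The control check group (CK) received citrate buffer by intraperitoneal injection. The diabetic cardiomyopathy group (DCM) received a single injection of streptozotocin, a toxin of the insulin-producing beta cells, at 180 mg/kg and was examined 12 weeks later. The spermine group (SPM) received the polyamine spermine at 1 mg/kg daily for 2 weeks before the streptozotocin injection and every other day for the following 12 weeks. No group received spermine without streptozotocin, and an injection of vehicle on the spermine schedule is not described for CK or DCM. The methods give 3 mice per group in one paragraph and pools of 6 out of 18 hearts in another, and which of these a library holds is not settled. P-values therefore measure the spread between these libraries. Total counts were 29901300 to 39718680 per library. The mitochondrial share of these counts ranged from 13.7% to 18.9% over CK and DCM and was higher, at 21.0% to 21.1%, in all SPM libraries. The tissue label names heart and the extraction protocol names retinas. Cardiomyocyte markers summed to 40367 to 54090 normalized CPM, with Myl2 and Tnni3 the most abundant by FPKM, whereas each of the 8 retina markers measured was under 1 normalized CPM in all 9 libraries.

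One library stood apart from the rest. SPM replicate 2 lay between SPM replicates 1 and 3 for 66.3% of all tested genes, compared with 15.7% to 40.1% for the other 8 libraries within their groups. Of 2656 genes at 0 in SPM replicates 1 and 3, only 30 (1.13%) had a count in SPM replicate 2, whereas the same share was 15.6% to 35.0% for every other library. How this library came to lie between the other two was not tested. The counts of genes called in SPM are therefore given with and without it.

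Collagens are secreted proteins whose alpha chains wind into a helix, as homotrimers or as mixtures of chains of one type. Fibrillar collagens such as type I and type III form the tensile network of the cardiac interstitium and are made mainly by fibroblasts. Type IV collagen forms the sheet of the basement membrane around cardiomyocytes and vessels, and fibril-associated chains decorate the surface of the fibrils. Excess of fibrillar collagen, or fibrosis, is a known feature of the diabetic heart, and this is why these genes are of interest in a comparison of DCM with CK and of SPM with DCM. The counts are of RNA and do not measure the collagen protein deposited in the tissue. The authors also examined fibrosis in heart sections by collagen I immunohistochemistry, which is not compared with the counts here.

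Promoter windows from 250 bases before to 50 after the start site were taken from RefSeq on GRCm38.p6, and 34 of the 43 genes were matched, with 37 windows. The windows of Col1a2 and Col3a1, the most abundant fibrillar chains by FPKM, are shown because these genes fell in DCM, that of Col4a2 because it is shared in part with Col4a1, and that of Col23a1 because this gene rose. Capitals mark matches on either strand to the TATA box, the CCAAT box or the GC box, whose letters are spelled out after the sequences. The windows are Col4a2 at chr8:11312555-11312854, Col1a2 at chr6:4505368-4505667, Col3a1 at chr1:45311288-45311587 and Col23a1 at chr11:51289670-51289969, all on the plus strand.
Col4a2: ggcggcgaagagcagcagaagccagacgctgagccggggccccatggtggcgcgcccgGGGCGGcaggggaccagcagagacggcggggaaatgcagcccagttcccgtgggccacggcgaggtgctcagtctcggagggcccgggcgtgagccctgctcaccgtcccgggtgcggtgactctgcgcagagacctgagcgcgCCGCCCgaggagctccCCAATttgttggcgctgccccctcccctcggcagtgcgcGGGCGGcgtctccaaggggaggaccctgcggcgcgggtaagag
Col1a2: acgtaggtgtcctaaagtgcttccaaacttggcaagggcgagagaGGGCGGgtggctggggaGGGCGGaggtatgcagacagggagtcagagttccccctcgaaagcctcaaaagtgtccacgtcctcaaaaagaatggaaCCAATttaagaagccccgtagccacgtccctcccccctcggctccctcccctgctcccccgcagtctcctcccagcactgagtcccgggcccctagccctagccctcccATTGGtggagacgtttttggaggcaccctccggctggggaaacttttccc
Col3a1: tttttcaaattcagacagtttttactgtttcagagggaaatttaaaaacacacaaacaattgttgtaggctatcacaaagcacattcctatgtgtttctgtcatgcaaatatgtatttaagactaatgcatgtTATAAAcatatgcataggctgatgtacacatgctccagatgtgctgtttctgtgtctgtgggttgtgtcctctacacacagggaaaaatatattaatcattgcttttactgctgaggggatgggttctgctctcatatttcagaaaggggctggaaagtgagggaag
Col23a1: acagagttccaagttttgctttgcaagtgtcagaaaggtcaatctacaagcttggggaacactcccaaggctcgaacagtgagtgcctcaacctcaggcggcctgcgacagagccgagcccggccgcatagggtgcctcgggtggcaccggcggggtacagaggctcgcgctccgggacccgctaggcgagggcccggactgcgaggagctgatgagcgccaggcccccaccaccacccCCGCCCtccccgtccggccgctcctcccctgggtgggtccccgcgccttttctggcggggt

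Col4a1 and Col4a2, which encode the major type IV chains, start head to head on chromosome 8. The Col4a1 start site on the minus strand was at 11312826 and the Col4a2 start site on the plus strand at 11312805, and their windows share 78 bases. Col4a6 and Col4a5 are also divergent neighbours, with 1343 bases between their start sites on chromosome X. The TATA box letters TATAAA stood in 4 of 37 collagen windows (10.8%) and in 13.6% of all 32851 windows. CCAAT stood in 35.1% of collagen windows and 37.4% of all windows. The letters GGGCGG of the GC box stood in 62.2% of collagen windows and 35.7% of all windows. Among the 11 windows of the 10 matched genes that fell in DCM, 7 held the GC box (63.6%), 4 the CCAAT box (36.4%) and 1 the TATA box (9.09%). The GC content of the windows shown was 73.7% for Col4a2, 67.7% for Col23a1 and 37.7% for Col3a1, and the median over all windows was 52.7%. The letters of one box do not overlap those of another within a window shown. The RefSeq start of Col1a2 lies inside its longer GENCODE span. These are matches of letters, not sites of binding.

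Per length, basement membrane chains led the collagen transcripts of the heart. The highest mean FPKM over the 9 libraries, the authors' value per kilobase of gene and per total count of the library, was that of Col4a1 (76.3), followed by Col4a2 (68.9), Col3a1 (51.3), Col1a2 (40.7), Col6a1 (35.9), Col1a1 (24.9), Col6a2 (24.7) and Col15a1 (17.9). In GENCODE M21 on GRCm38, with the strand in parentheses, the basement membrane genes among these lie with Col4a1 at chr8:11198423-11312826 (minus), Col4a2 at chr8:11312805-11449287 (plus) and Col15a1 at chr4:47208161-47313167 (plus). The fibrillar genes lie with Col3a1 at chr1:45311538-45349706 (plus), Col1a2 at chr6:4504814-4541544 (plus) and Col1a1 at chr11:94936224-94953042 (plus). The abundant type VI genes lie on the same strand of chromosome 10, with Col6a1 at chr10:76708792-76726168 (minus) and Col6a2 at chr10:76595762-76623630 (minus). Another 14 genes lay between 1 and 10 FPKM and 21 lay under 1 FPKM. On the count scale, 10 genes were under 1 normalized CPM (counts scaled to the library total after TMM) in every library. In CK, Col4a1 and Col4a2 together made up 34.9% to 36.2% of the summed collagen FPKM, and Col1a1, Col1a2 and Col3a1 together 31.0% to 31.8%.

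**Figure D1:**
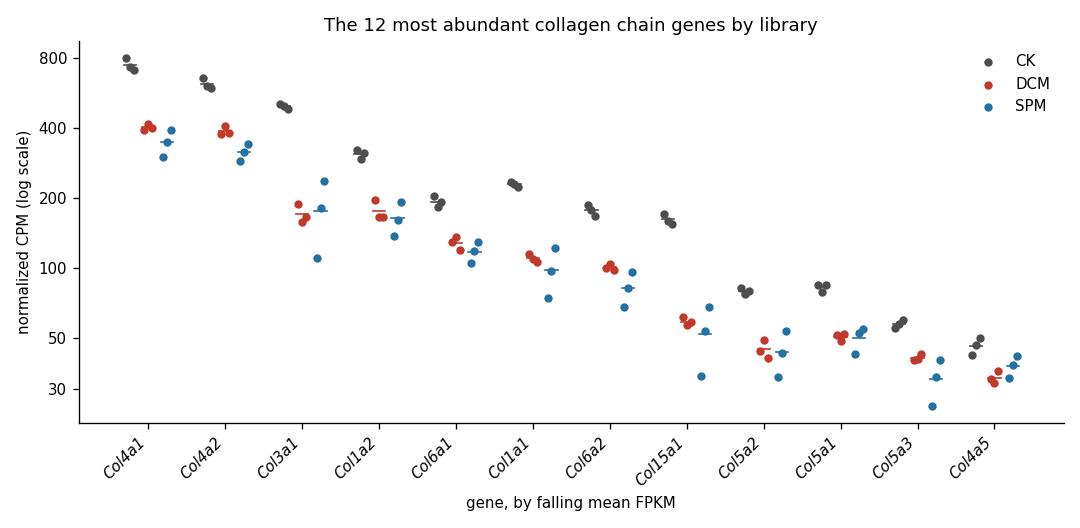
The 12 most abundant collagen chain genes are plotted by falling mean FPKM on the x axis, with normalized CPM on a log y axis, 1 point per library and a bar at the group mean. The 3 CK libraries (grey) lie above the 3 DCM libraries (red) for each of the 12 genes, and SPM (blue) spreads widest, as for Col3a1 with 109.7 to 236 in SPM and 157 to 188 in DCM.

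Most collagen genes had lower counts in DCM compared to CK. The summed level of the 43 genes was 3395 to 3630 normalized CPM in CK and 1849 to 1922 in DCM. Of the 36 collagen genes that passed the filter on low counts, 16 were DEGs, called at an adjusted p below 0.05 over all genes and a fold change of at least 1.5, with 14 downregulated and 2 upregulated. The background was 4.34% of 14402 genes called (2.31% lower and 2.03% higher). A negative log2 fold change was found for 30 of the 36 genes (50.4% of all genes), and their median was -0.64 (all genes 0.00). At an adjusted p below 0.05 with any fold, 18 fell and 2 rose, where 10.4% of all genes passed. Every DCM library was below every CK library for 20 of the 36 genes (14.8% of all genes) and above for 4 (14.5% of all genes). In bulk tissue, fewer cells of a type and less RNA per cell cannot be told apart. The 7 genes that did not pass the filter were Col2a1, Col4a6, Col6a4, Col6a5, Col9a1, Col19a1 and Col24a1.

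**Figure D2:**
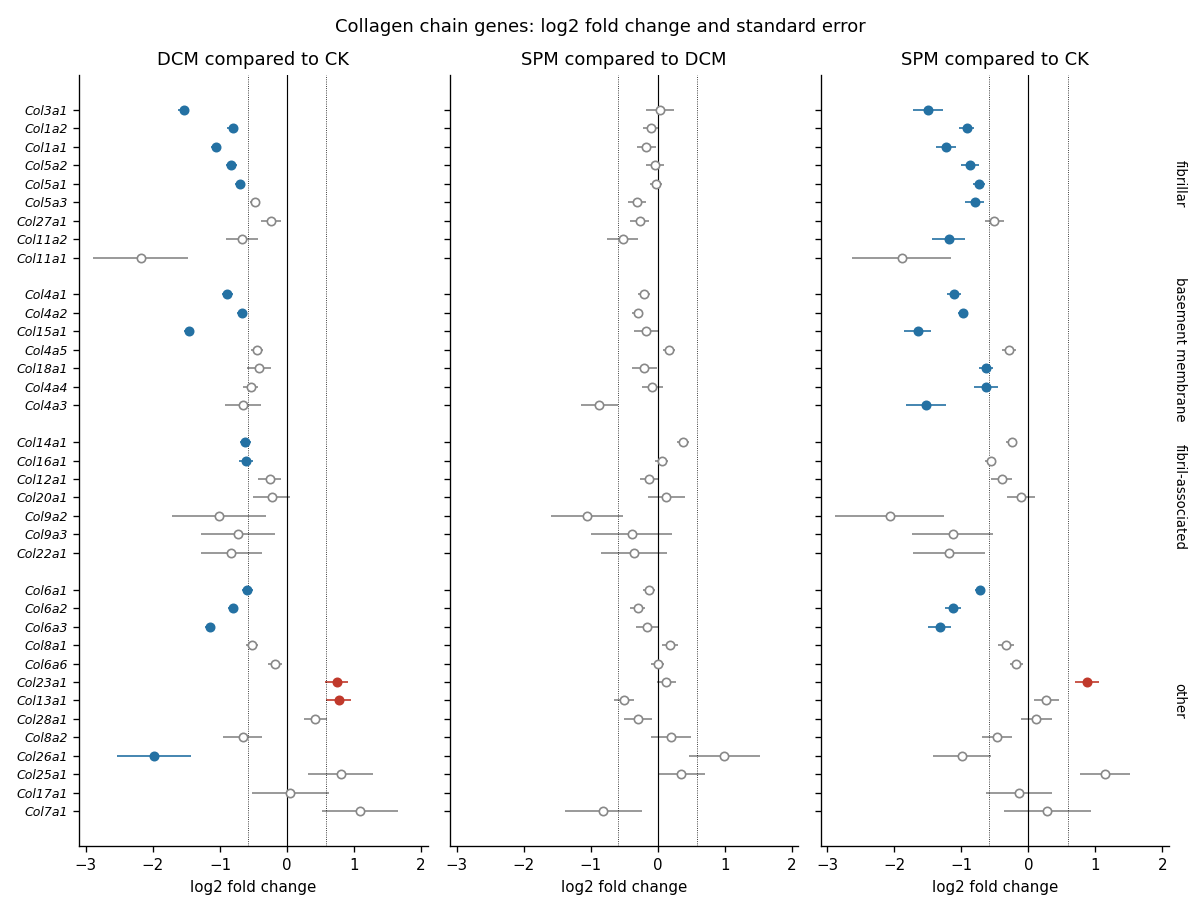
Log2 fold changes (x axis) with standard errors are shown for each tested collagen chain gene (rows, grouped by class and ordered by mean FPKM) in the 3 comparisons. Filled points are called (blue lower, red higher), open grey points are not, and dotted lines mark a fold of 1.5. The points fill in DCM compared to CK (14 lower, 2 higher) and SPM compared to CK (16 lower, 1 higher), and none fill in SPM compared to DCM.

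Among fibrillar chains, 5 of 9 tested genes were downregulated in DCM and the median log2 fold change was -0.81, with all 9 negative. Col3a1, the chain of type III collagen, stood at 506, 498 and 483 normalized CPM in CK, at 188, 157 and 165 in DCM and at 109.7, 180.1 and 236 in SPM. It fell the most among the abundant chains in DCM, 2.91-fold (log2 -1.54, SE 0.08, edgeR adjusted p = 8.85e-07), with no overlap between CK and DCM. Col1a1 and Col1a2 build type I collagen, the main fibre of the interstitium. Col1a1 had 235, 229 and 222 normalized CPM in CK, 115, 109 and 106 in DCM and 74.2, 96.6 and 122 in SPM. For Col1a2 the values were 320.3, 293 and 311 in CK, 196, 165 and 165 in DCM and 137, 161 and 191 in SPM. Both fell in DCM without overlap, Col1a1 by 1.06 on the log2 scale (SE 0.07, edgeR adjusted p = 3.36e-06) and Col1a2 by 0.81 (SE 0.08, edgeR adjusted p = 1.01e-04).

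Type V chains, which are incorporated into type I fibrils and set their diameter, were next in abundance. Col5a1 was measured at 84.1, 78.9 and 84.3 normalized CPM in CK, 51.3, 48.6 and 51.9 in DCM and 42.4, 52.2 and 54.7 in SPM. Col5a2 was measured at 81.5, 77.3 and 79.2 in CK, 43.8, 49.1 and 41.0 in DCM and 33.8, 43.0 and 53.7 in SPM. The log2 fold change in DCM was -0.70 (SE 0.07) for Col5a1 and -0.83 (SE 0.08) for Col5a2, both called, and the CK and DCM libraries did not overlap for either. Col5a3, with 55.1, 57.4 and 59.5 in CK and 40.3, 40.5 and 42.4 in DCM, passed the adjusted p (0.00118 by edgeR) at a fold of 1.40, under the limit. The remaining fibrillar chains were rare in this tissue. Col27a1 and Col11a2 changed by -0.24 and -0.67 on the log2 scale in DCM, and Col11a1 by -2.18 (SE 0.71, edgeR adjusted p = 0.0743) from 95 counts in CK and 23 in DCM, none of them called.

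The cartilage collagen Col2a1 was detected almost entirely in 1 library. It stood at 11.7 normalized CPM in CK replicate 1, at 0.446 and 0.130 in the other CK libraries and between 0 and 0.130 in the DCM and SPM libraries. CK replicate 1 also had the highest Col11a1 (1.98) and Col9a2 (2.29), both partners of type II collagen in cartilage, and the highest Acan (2.65 normalized CPM, 83 counts), the cartilage proteoglycan, which had 4 to 21 counts in each other library. Not all cartilage genes peaked there. Col9a3 was highest in CK replicate 3 (0.778) and Hapln1 in SPM replicate 3 (1.04), and Cnmd, the most abundant marker of the list, was at 2.84 in CK replicate 1 and 4.295 to 8.802 in the DCM and SPM libraries. Tnmd was highest in CK replicate 1, with 20 counts there and 0 to 6 in each other library. Cartilage and tendon markers, Acan included, summed to a few normalized CPM (2.43 to 6.53 in CK, 5.95 to 7.18 for DCM and 5.66 to 9.73 for SPM). Most of this sum in DCM and SPM was Cnmd (5.51 to 6.74 in DCM), so it does not follow the other markers. The part of this tissue in the levels of the rare chains was not tested.

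Of 7 tested basement membrane chains, 3 were downregulated in DCM, and all 7 log2 fold changes were negative, with a median of -0.66. Col4a1 was found at 799, 730.1 and 711 normalized CPM in CK, at 389.6, 414 and 400.5 in DCM and at 299.9, 349 and 393 in SPM. Col4a2 was found at 655, 604 and 596 in CK, at 376, 406 and 381 in DCM and at 288, 316 and 341 in SPM. The pair fell without overlap in DCM, Col4a1 by 0.89 on the log2 scale (SE 0.08, edgeR adjusted p = 1.98e-05) and Col4a2 by 0.67 (SE 0.07, edgeR adjusted p = 1.48e-04). Their annotated spans overlap at the starts on opposite strands and counting by strand is not stated, so reads of the short overlap could go to either gene. Col15a1 encodes a multiplexin that bridges the basement membrane to the interstitium. Its level was 171, 159 and 155 in CK, 61.3, 56.6 and 58.2 in DCM and 34.2, 53.5 and 67.7 in SPM, a 2.76-fold fall in DCM (log2 -1.46, SE 0.07, edgeR adjusted p = 6.77e-07). Col15a1 shares its locus with Gm12426 on the other strand, which averaged 1.14 normalized CPM.

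The minor basement membrane chains were not called in DCM compared to CK. Col4a5, a chain of the minor type IV network, had 42.1, 46.5 and 50.04 normalized CPM in CK, 33.2, 31.8 and 36.1 in DCM and 33.7, 38.1 and 41.8 in SPM, and its fold of 1.37 in DCM was under the limit. Col4a3 and Col4a4, also of the minor type IV network, had log2 fold changes of -0.66 (SE 0.27) and -0.54 (SE 0.11) in DCM, not called, although Col4a4 was called by limma (-0.60, adjusted p = 0.0378) and by edgeR without CK replicate 1 (-0.63, adjusted p = 0.00242) or DCM replicate 1 (-0.60, adjusted p = 0.0156). Col4a3 was at 3.63, 4.30 and 2.34 in CK, 2.01, 1.96 and 2.55 in DCM and 0.893, 1.19 and 1.497 in SPM. Col4a4 was at 18.5, 21.8 and 23.1 in CK, 15.7, 13.2 and 14.5 in DCM and 10.2, 13.8 and 17.2 in SPM. DCM lay below CK without overlap for Col4a4 and overlapped it for Col4a3. Col18a1, the precursor of endostatin, was at 21.4, 23.1 and 26.3 in CK, 23.9, 16.5 and 12.5 in DCM and 14.6, 14.8 and 16.7 in SPM, so CK and DCM overlapped (log2 -0.42, SE 0.18, edgeR adjusted p = 0.181), and without DCM replicate 1 it was called (-0.70, edgeR adjusted p = 0.0142). Slc19a1, which overlaps Col18a1 on the other strand, averaged 6.07 normalized CPM.

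Fibril-associated chains were a small share of the total and 2 of 7 tested genes were downregulated in DCM, with a median log2 fold change of -0.62. Col14a1, which binds the surface of type I fibrils, was at 36.6, 38.2 and 39.0 normalized CPM in CK, 25.9, 25.0 and 22.8 in DCM and 28.8, 31.7 and 35.3 in SPM. The fall of 0.62 in DCM (SE 0.08, edgeR adjusted p = 5.16e-04) was just over the fold limit and dropped under it, to 0.57, without DCM replicate 3. Col16a1, a chain found near microfibrils, was at 21.6, 19.05 and 20.04 in CK, 13.9, 13.6 and 12.1 in DCM and 14.4, 13.5 and 13.3 in SPM. Its log2 fold change of -0.61 (SE 0.10, edgeR adjusted p = 0.00267) became -0.56 without CK replicate 1 and -0.55 without DCM replicate 3, under the fold limit. The CK and DCM libraries did not overlap for either gene. The 5 other tested chains of this class, Col9a2, Col9a3, Col12a1, Col20a1 and Col22a1, had log2 fold changes of -1.02 to -0.23 and none was called.

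**Figure D3:**
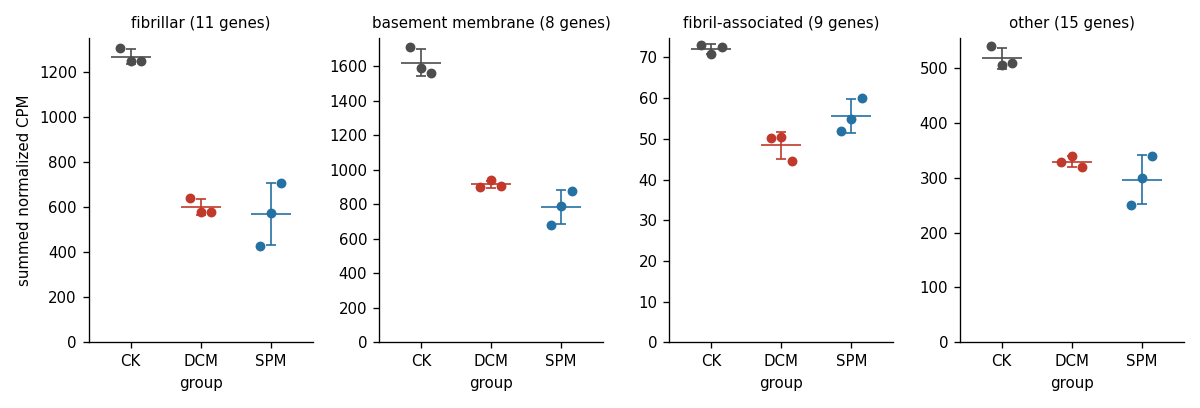
Summed normalized CPM (y axes from 0) of the 4 classes is plotted for each library, with the group mean and SD. In each class the 3 CK libraries lie above all DCM and SPM libraries, as for fibrillar chains with 1247 to 1306 in CK, 578 to 641 for DCM and 429 to 705 for SPM.

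The other collagens held both directions, with 4 genes downregulated and 2 upregulated of 13 tested in DCM and a median log2 fold change of -0.18. Type VI collagen forms beaded microfilaments around cells from the chains of Col6a1, Col6a2 and Col6a3. Col6a1 was counted at 204, 182 and 192 normalized CPM in CK, 129, 136 and 119.7 in DCM and 105, 118 and 129 in SPM. Col6a2 was counted at 186, 177 and 167 in CK, 100.04, 104 and 98.1 in DCM and 67.7, 82.2 and 95.9 in SPM. For Col6a3 the levels were 86.3, 81.8 and 83.8 in CK, 36.2, 38.3 and 38.7 in DCM and 24.04, 34.3 and 43.2 in SPM. All fell in DCM without overlap, by 0.59 on the log2 scale for Col6a1 (SE 0.08, edgeR adjusted p = 4.25e-04), 0.81 for Col6a2 (SE 0.07, edgeR adjusted p = 2.71e-05) and 1.15 for Col6a3 (SE 0.07, edgeR adjusted p = 2.40e-06). Col6a1 sat on the fold limit (a fold of 1.501) and fell under it, at -0.58 to -0.53, in 7 alternatives, with an adjusted p that still passed.

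Col13a1 and Col23a1, collagens with a membrane-spanning part, were upregulated in DCM. Col23a1 was at 6.37, 6.75 and 9.57 normalized CPM in CK, 14.4, 11.2 and 12.2 in DCM and 11.4, 14.0 and 16.2 in SPM. Col13a1 was at 2.96, 3.32 and 2.46 in CK, 5.13, 5.15 and 4.72 in DCM and 3.54, 3.44 and 3.64 in SPM. In DCM, Col23a1 rose by 0.74 on the log2 scale (SE 0.17, edgeR adjusted p = 0.0141) and Col13a1 by 0.77 (SE 0.19, edgeR adjusted p = 0.0224), without overlap between CK and DCM. Both calls were thin. Col23a1 missed the adjusted p by limma (0.0646), without CK replicate 2 (0.0662 by edgeR) and without DCM replicate 1 (0.0595), and Col13a1 missed it without CK replicate 3 (0.0709) or without any 1 DCM library (0.0532 to 0.0743). Col26a1, an emilin-like chain of low level, had 1.98, 1.53 and 0.746 in CK, 0.126, 0.406 and 0.557 in DCM and 0.492, 0.708 and 0.944 in SPM. Its call of -1.98 (SE 0.55, edgeR adjusted p = 0.0393), from 140 counts in CK and 36 in DCM, was lost when any 1 of CK replicates 1 and 2 or the DCM libraries was left out, with adjusted p of 0.0566 to 0.118. Among the uncalled chains, Col8a1, a network-forming chain of vessels, changed by -0.52 (SE 0.09, edgeR adjusted p = 0.00464), Col6a6 by -0.18 and Col28a1 by 0.42, and the rarest, Col7a1, Col8a2, Col17a1 and Col25a1, lay between -0.66 and 1.09.

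The fitted falls of chains of one protein were not equal, and the ratios of their FPKM values were compared between groups. Col1a1 over Col1a2 was 0.663, 0.706 and 0.645 in CK and 0.527, 0.597 and 0.577 in DCM. Col3a1 over Col1a1 was 2.29 to 2.31 in CK and 1.53 to 1.75 in DCM. Col4a1 over Col4a2 was 1.16 to 1.19 in CK and 0.995 to 1.03 in DCM, so that the chains were about equal in DCM. In type VI collagen, Col6a1 over Col6a2 went from 1.31 ± 0.0696 to 1.52 ± 0.0533 (mean ± SD, n = 3 libraries). Col6a3 over Col6a1 went from 0.172 to 0.182 in CK to 0.114 to 0.131 in DCM. For each of these 5 ratios CK and DCM did not overlap. The exact two-sided permutation p was 0.1, the smallest that 3 against 3 libraries allow, and 0.162 after adjustment over 21 tests of 7 ratios. No ratio could therefore pass 0.05 in this test. Col5a2 over Col5a1 overlapped between CK and DCM (exact permutation p = 0.4), as did Col4a4 over Col4a3 (exact permutation p = 0.8). In SPM, Col4a4 over Col4a3 was 9.63 to 9.79, above the 4.81 to 6.61 of DCM and the 4.30 to 8.36 of CK (exact permutation p = 0.1, adjusted 0.162). The other 6 ratios gave, for SPM against DCM, exact permutation p of 0.1 for Col6a1 over Col6a2 and 0.2 to 0.9 for the rest.

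**Figure D4:**
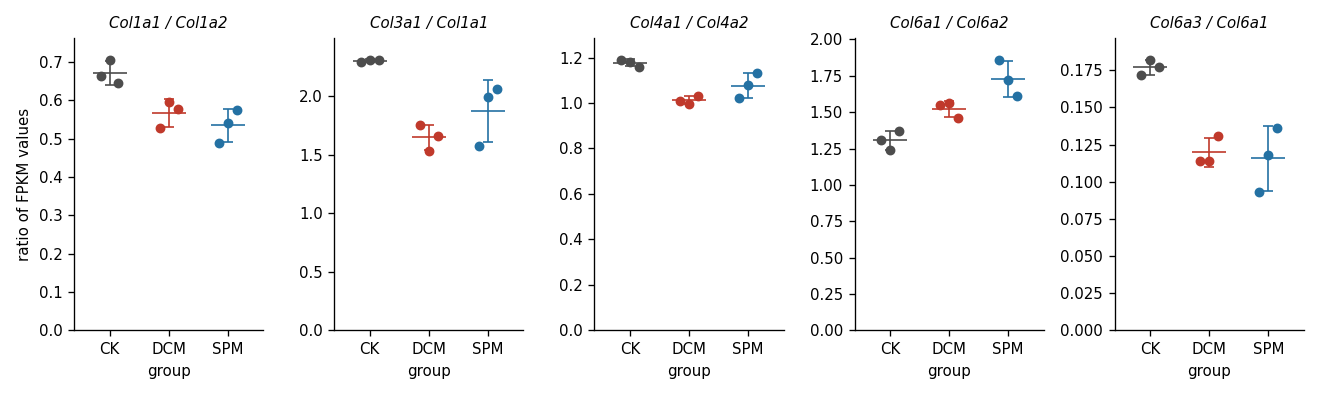
Ratios of FPKM values (y axes from 0) between chains of one collagen type, or of types III and I, are plotted for each library with the group mean and SD. Of the 5 ratios plotted, those of DCM lie below those of CK except for Col6a1 over Col6a2, where DCM lies at 1.46 to 1.56 and CK at 1.24 to 1.37.

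The make-up of the collagen transcripts shifted with these unequal changes. As a share of the summed collagen FPKM, Col3a1 was 14.8% to 15.6% in CK, 8.77% to 10.4% for DCM and 8.28% to 12.6% for SPM. Col15a1 moved from 5.24% to 5.39% in CK to 3.404% to 3.64% for DCM and 2.77% to 3.901% for SPM. Col6a1 took a larger share in DCM (9.40% to 10.3%) and SPM (9.35% to 10.8%) than in CK (7.73% to 8.17%), although its level fell in DCM. Fibrillar chains as a class took 36.8% to 37.6% in CK, 30.6% to 33.9% for DCM and 30.7% to 36.1% for SPM, whereas basement membrane chains kept 42.7% to 43.6%, 43.1% to 45.3% and 40.7% to 44.3%. Shares of 1 library sum to a fixed total, so a rise of one is tied to a fall of another.

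In SPM compared to DCM, no collagen gene of 34 tested was called by edgeR, where 3.59% of all 14493 genes were called. None of the 43 fitted was called by DESeq2, where 566 of 21918 genes were called. The median log2 fold change by edgeR was -0.15 (all genes 0.01), with 23 of 34 negative (49.3% of all genes). At an unadjusted p below 0.05, 7 collagen genes passed (34.6% of all genes). At an adjusted p below 0.05 with any fold (16.6% of all genes), Col14a1 rose by 0.38 (SE 0.09, edgeR adjusted p = 0.0247), Col4a2 fell by 0.30 (SE 0.08, edgeR adjusted p = 0.0305) and Col13a1 fell by 0.50 (SE 0.15, edgeR adjusted p = 0.0478). SPM lay outside DCM without overlap for these 3 genes, and for 9 of the 34 in all, where 39.2% of all genes did so. Without SPM replicate 2 no collagen gene passed at any fold, where calls fell to 0.378% of all 14828 genes and passes at any fold to 0.486%. At an unadjusted p below 0.05, 5 of 36 collagen genes tested then passed (22.0% of all genes). The median went to -0.13 when SPM replicate 2 was left out, to 0.01 when SPM replicate 1 was and to -0.27 when SPM replicate 3 was. Col4a3 came nearest to the limits (log2 -0.87, SE 0.28, edgeR adjusted p = 0.0546) and was called with a filter of 1 CPM (0.0466) and without SPM replicate 3 (0.0402).

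The 95% intervals of the differences between SPM and DCM differed in width among the abundant chains. They ran from -0.48 to 0.14 on the log2 scale for Col1a1, from -0.36 to 0.15 for Col1a2, from -0.42 to 0.51 for Col3a1, from -0.42 to 0.00 for Col4a1, from -0.32 to 0.06 for Col6a1 and from -0.59 to 0.23 for Col15a1. A return of Col3a1 to the CK level would be a rise of about the 1.54 that it fell, outside its interval. These intervals rest on SPM libraries that spread widely, and they count SPM replicate 2 as an independent library. Without it the log2 fold change was 0.02 (SE 0.22) for Col3a1 and -0.16 (SE 0.16) for Col1a1, on fewer libraries, and intervals are not given for that fit. By DESeq2 the SE of Col3a1 was 0.32. The coefficient of variation over replicates of the 12 most abundant genes had a median of 17.0% in SPM, compared with 4.79% in CK and 4.08% in DCM. SPM replicate 1 was the lowest SPM library for 29 of 34 genes and SPM replicate 3 the highest for 31, and SPM replicate 2 lay between them for 29 (85.3%).

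Collagen transcripts are rich in GC and long, with a median GC content of 55.2% (all genes 49.2%) and a median length of 6048 bases (all genes 2556). With an offset for GC content the median log2 fold change of the collagen genes between SPM and DCM became -0.03, and 18 of 34 genes were negative. Col1a1, Col1a2, Col5a1, Col6a1 and Col18a1 then changed sign, to 0.02 to 0.15. Of the 3 genes that had passed with no fold limit, Col4a2 went to -0.09 (edgeR adjusted p = 0.476) and Col13a1 to -0.30 (0.233) and no longer passed, whereas Col14a1 stayed at 0.39 (0.0499). The small differences of Col1a1, Col1a2, Col5a1, Col6a1 and Col18a1 between SPM and DCM therefore had no stable direction. Over all alternatives Col4a2 stayed negative (-0.37 to -0.09), as did Col13a1 (-0.55 to -0.28), and Col14a1 stayed positive (0.29 to 0.44).

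**Figure D5:**
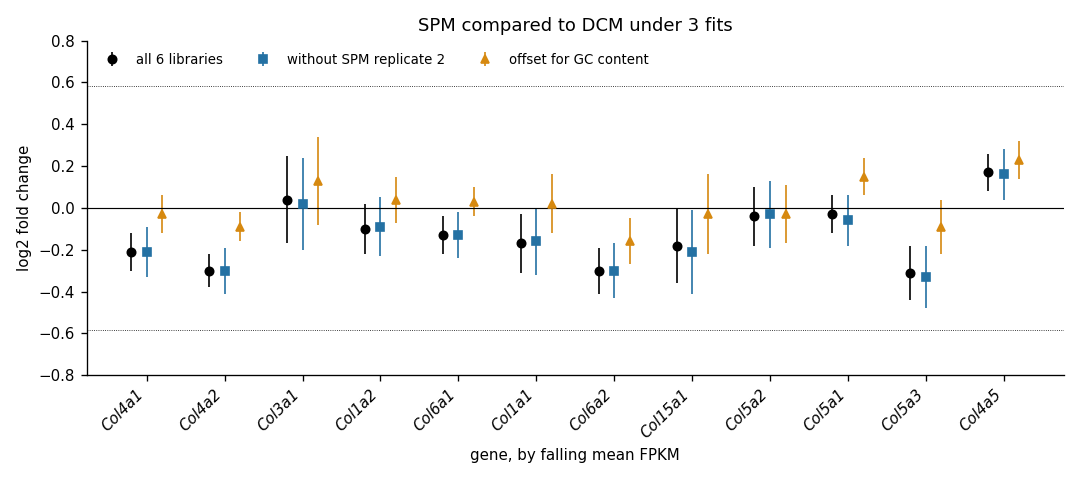
Log2 fold changes of SPM compared to DCM (y axis) with standard errors are shown for the 12 most abundant collagen chain genes with all 6 libraries (circles), without SPM replicate 2 (squares) and with an offset for GC content (triangles). All points lie inside the dotted lines of a 1.5-fold change, and the triangles lie at or above the circles, with Col1a2 at -0.10 and 0.04.

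In SPM compared to CK, which shares the CK libraries with the first comparison and the SPM libraries with the second, 17 of 36 tested collagen genes were called, 16 downregulated and 1 upregulated. The background was 9.21% of 14574 genes (4.12% lower and 5.08% higher). The median was -0.73 (all genes 0.00), and every SPM library was below every CK library for 23 genes (23.0% of all genes). Without SPM replicate 2, 16 genes were called (5.18% of all genes) and the median was -0.73. With the offset for GC content, 13 were called (7.29% of all genes) and the median was -0.57, and with both changes 11 were called (4.01% of all genes). The calls lost with the GC offset were those of Col5a1 (-0.57), Col6a1 (-0.58), Col18a1 (-0.43) and Col4a4 (-0.57). The largest falls among the abundant chains were those of Col15a1 (3.14-fold, SE 0.20 on the log2 scale), Col3a1 (2.84-fold, SE 0.22 on the log2 scale), Col6a3 (2.49-fold, SE 0.17) and Col1a1 (2.35-fold, SE 0.15), with edgeR adjusted p of 0.00136 to 0.00270. On the log2 scale, Col4a1 changed by -1.11, Col4a2 by -0.98, Col6a2 by -1.12, Col1a2 by -0.92, Col5a2 by -0.87, Col5a1 by -0.73 and Col6a1 by -0.72, all called.

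The genes that passed both limits in SPM compared to CK and not in DCM compared to CK were Col5a3 (log2 -0.80), Col11a2 (-1.19), Col18a1 (-0.63), Col4a3 (-1.53) and Col4a4 (-0.63). The difference itself, SPM compared to DCM, was not called for any of them with all libraries after filterByExpr. Col4a3 was called there with the filter of 1 CPM (log2 -0.86, edgeR adjusted p = 0.0466) and without SPM replicate 3 (0.0402). The split was not firm. Col4a4 lost its call in SPM compared to CK in 6 of 15 alternatives, among them without SPM replicate 2 (edgeR adjusted p = 0.0888), SPM replicate 1 (log2 -0.45), CK replicate 2 (0.0841) or CK replicate 3 (0.0866) and with the GC offset (0.0517), and Col18a1 without CK replicate 3 (log2 -0.55) and with the GC offset. Col5a3, Col11a2 and Col4a3 each kept the call in SPM compared to CK in 14 of 15 alternatives. They lost it with the GC offset and without SPM replicate 2 (edgeR adjusted p = 0.0568, 0.0707 and 0.0520). In DCM compared to CK, Col11a2 was called without CK replicate 3 (log2 -0.85, edgeR adjusted p = 0.03998). Col5a3 was at 25.5, 33.9 and 40.03 normalized CPM in SPM, all under the DCM libraries. Col11a2 was at 4.81, 4.71 and 3.05 in CK, 2.31, 3.15 and 2.49 in DCM and 1.60, 1.93 and 1.99 in SPM. Col23a1 stayed higher in SPM than in CK (log2 0.87, SE 0.18, edgeR adjusted p = 0.00965), with no overlap. Col13a1 was not called there (0.27, SE 0.19), nor were Col14a1 (-0.25, SE 0.08), Col16a1 (-0.56, SE 0.08, adjusted p = 0.00249 by edgeR at a fold of 1.48) and Col26a1 (-0.99, SE 0.43).

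The chains are modified and folded by enzymes and chaperones before secretion. Of 19 such genes, 2 were downregulated and 1 upregulated in DCM (4.34% of all genes called), with a median log2 fold change of -0.19. Serpinh1, the collagen chaperone HSP47, was at 295, 256 and 281 normalized CPM in CK, 143, 152 and 132 in DCM and 121, 132 and 139 in SPM, and it fell by 0.96 in DCM (SE 0.08, edgeR adjusted p = 1.97e-05). P4ha1, a catalytic subunit of prolyl 4-hydroxylase, fell by 0.59 (SE 0.11, edgeR adjusted p = 0.00653), and Fkbp10, a prolyl isomerase, rose by 0.71 (SE 0.08, edgeR adjusted p = 1.91e-04). P4hb, the partner of P4ha1, was the most abundant gene of this list by FPKM and lay at 309 to 336 in DCM and 311 to 326 in CK. None was called by edgeR in SPM compared to DCM. At an unadjusted p below 0.05, 10 of 19 passed (34.6% of all genes), and 5 without SPM replicate 2 (22.0% of all genes). In SPM compared to CK (9.21% of all genes called) 4 fell, namely Serpinh1 (log2 -1.09), Plod1 (-0.72), P3h2 (-0.62) and Creb3l1 (-0.76). Of these, P3h2 was not called without SPM replicate 2.

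Of 14 genes for procollagen processing and crosslinking, 1 fell and 1 rose in DCM (4.34% of all genes called), with a median of -0.18. The lysyl oxidase Lox rose, from 6.598, 8.17 and 11.03 normalized CPM in CK to 16.1, 15.4 and 14.5 in DCM (log2 0.83, SE 0.16, edgeR adjusted p = 0.00640), and stood at 20.6, 17.5 and 16.1 in SPM. Its relative Loxl2 fell, from 21.3, 20.7 and 23.1 to 13.0, 11.2 and 13.1 (log2 -0.80, SE 0.10, edgeR adjusted p = 4.44e-04). Tgm2, a transglutaminase, and Pcolce, an enhancer of procollagen cleavage, were the most abundant of this list by FPKM and were not called in DCM (log2 0.26 and -0.48). In SPM compared to DCM none was called by edgeR. At an unadjusted p below 0.05, 4 of 14 passed (34.6% of all genes), and 2 without SPM replicate 2 (22.0% of all genes). In SPM compared to CK (9.21% of all genes called), Lox (log2 1.07) and Adamts3 (0.81) rose and Loxl1 (-0.85) and Loxl2 (-1.03) fell. These 4 were also called without SPM replicate 2 (5.18% of all genes called).

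Of 11 tested collagen receptors, 1 fell in DCM (4.34% of all genes called) and the median was -0.42. It was Lair1, an inhibitory collagen receptor of leukocytes, at 6.50, 3.85 and 3.60 normalized CPM in CK and 3.12, 1.76 and 2.05 in DCM (1.996-fold lower, edgeR adjusted p = 0.0447), and it rose in SPM compared to DCM (log2 1.14, SE 0.23, edgeR adjusted p = 0.0154) to 5.63, 5.40 and 4.33. Without SPM replicate 2 Lair1 was not called there (log2 1.10, edgeR adjusted p = 0.07004). The integrin subunit Itgb1 and the adhesion receptor Adgrg1 were the most abundant by FPKM and were not called in DCM (log2 -0.22 and 0.58). In SPM compared to CK (9.21% of all genes called), Itga2 (log2 -1.31), Itga10 (-0.95), Itga11 (-0.77) and Mrc2 (-0.78) fell and Adgrg6 (0.75) rose. Without SPM replicate 2 (5.18% of all genes called) only Mrc2 of these 5 was called.

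Marker lists of the cells that make collagen had medians closer to 0 than the collagen genes. Of 9 fibroblast markers measured, 1 (Pi16, log2 -0.78) was called in DCM (4.34% of all genes). The median log2 fold change was -0.27 and 6 were negative (50.4% of all genes). With no fold limit (10.4% of all genes) 4 fell, Pi16, Lum (-0.49), Abca8a (-0.37) and Dpt (-0.29). Every DCM library was below every CK library for 5, these and Mfap5 (14.8% of all genes). Lum, a proteoglycan of collagen fibrils, was at 93.1, 91.5 and 104 normalized CPM in CK, 66.98, 67.2 and 71.5 in DCM and 88.9, 92.5 and 94.7 in SPM. The sum of the fibroblast markers, most of it from Gsn, was 4648 to 4848 normalized CPM in CK, 4559 to 5094 for DCM and 4346 to 4576 for SPM. In SPM compared to DCM no fibroblast marker was called, and the median was 0.09. With no fold limit (16.6% of all genes) Dcn (log2 0.36), Lum (0.42) and Abca8a (0.29) rose and none fell. Without SPM replicate 2 these 3 did not pass (edgeR adjusted p of 0.0543 to 0.158). The 2 most abundant of the list overlapped between CK and DCM, as Gsn was at 3398 to 3608 in CK and 3374 to 3974 in DCM, and Dcn at 751 to 862 and 747 to 795. Of 9 tested activated fibroblast markers 2 fell in DCM, Postn and Meox1 (4.34% of all genes called), with a median of -0.25. Their sums were 348 to 448 in CK, 284 to 495 for DCM and 282 to 296 for SPM. None of 10 endothelial markers, of which Fabp4 and Pecam1 had the highest FPKM, was called (median -0.06, sums 3010 to 3388 in CK and 2970 to 3126 in DCM), and none of 9 pericyte and smooth muscle markers, with Rgs5 and Abcc9 highest by FPKM (median 0.00, sums 1307 to 1377 and 1342 to 1366), 9 cardiomyocyte markers (median -0.01), 7 mesothelial and epicardial markers (median -0.32) or 6 Schwann cell markers (median 0.14). Mesothelial and epicardial markers summed to 55.1 to 100.1 in CK and 41.4 to 91.9 in DCM, and Schwann cell markers to 19.1 to 20.8 and 19.0 to 21.0. The 1 cartilage and tendon marker tested in DCM compared to CK, Cnmd, rose. No marker of these lists was at 0 in all 9 libraries. The part of the cell make-up in the lower collagen counts was not tested.

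Several marker sums moved with the SPM libraries, macrophage markers among them. Their sum was 691 to 924 normalized CPM in CK, 551 to 662 for DCM and 663 to 1151 for SPM. In DCM 2 of 8 fell (median -0.49), where 4.34% of all genes were called. In SPM compared to DCM 5 of 8 were called higher (median 0.64), where 3.59% of all genes were called. Of these 5, Adgre1 and Mrc1 did not overlap DCM (39.2% of all genes did not), whereas Lyz2, C1qa and C1qb did. Without SPM replicate 2 no macrophage marker was called by edgeR, 5 of 8 had an unadjusted p below 0.05 (22.0% of all genes) and the median was 0.66. Within SPM, replicate 1 had the highest macrophage sum (1151) and the lowest collagen sum (1413), replicate 3 the lowest macrophage sum (663) and the highest collagen sum (1985), and replicate 2 lay between on both (853 and 1715). Mesothelial and epicardial markers ran in the order of the collagens, at 34.7, 68.5 and 97.1 in SPM replicates 1, 2 and 3. The sums of cardiomyocyte markers (40367, 43229 and 45720) and fibroblast markers (4346, 4467 and 4576) did so too. Within these sums Myh6 (13956, 17400 and 20245), Gsn (2856, 3044 and 3224), Lum, Dpt, Mfap5 and Pi16 ran in this order. Myl2 (6557, 6060 and 5793), Tnni3 (3565, 3452 and 3412) and Dcn (1080, 987 and 908) ran in the opposite order. The sum of activated fibroblast markers also ran opposite (296, 288 and 282), with Acta2 the most abundant gene of that list (mean 152 in SPM). Postn (29.2, 35.96 and 40.2) and Meox1 (8.53, 10.2 and 11.98) of the same list ran in the order of the collagens. The order of its other genes is not given here. SPM replicate 2 lay between SPM replicates 1 and 3 for 66.3% of all tested genes, so a run in one order or the other is common. These orders therefore add little to the contrast of SPM replicates 1 and 3. The part of these differences between SPM libraries in their collagen counts was not tested.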

How the data were processed

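Heart RNA was measured in 9 libraries, 3 each of CK, DCM and SPM, grouped by their labels. Reads were filtered by the authors with fastp 0.18.0, and the deposited counts are whole numbers per Ensembl gene. Counting tool and annotation are not given in the sources used. The submitters' processing notes name Bowtie 0.12.2, mm8 and mm9 with no role. The deposited FPKM values are the counts over the total of the library and over a fixed length of each gene. FPKM served to compare genes per length, and counts served for all else.

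Symbols and positions came from GENCODE M21 on GRCm38, which names 22820 of 22851 identifiers. Groups were compared in pairs over all genes with the quasi-likelihood test of edgeR 4.0.16 (R 4.3.3) after filterByExpr and TMM, each pair with its own 6 libraries. Genes were called at a Benjamini-Hochberg adjusted p below 0.05 over all genes tested and a fold change of at least 1.5. Standard errors of log2 fold changes are their size over the square root of F, and intervals use the t quantile of the fit. Normalized CPM uses TMM factors of all 9 libraries. Ratios were compared by exact permutation. The steps were tested on simulated data.

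The members, the lists (3 of collagen pathway genes and 10 of cell type markers, namely fibroblast, activated fibroblast, endothelial, pericyte and smooth muscle, cardiomyocyte, mesothelial and epicardial, Schwann, cartilage and tendon, macrophage, and retina) and the tests were chosen with earlier results of these data known. Values in every library are given for the 12 collagen genes with the highest mean FPKM and for every member called in a comparison. From the lists, the 2 most abundant genes by FPKM and each called pathway gene could be named. Col2a1, Acan, Hapln1, Cnmd, Myh6, Lum and the other fibroblast and macrophage markers that passed a test, and the uncalled rare chains, were named after their values were seen.

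Replicate numbers did not pair the libraries. Correlations of residuals were -0.0746 to 0.205 between libraries of the same number and -0.284 to 0.217 between others, so no replicate block was used. Alternatives were DESeq2 1.42.0, RLE size factors, fold limits of 1.3 and none, a joint fit of the 9 libraries, no low-count filter or one of 1 CPM in 3 libraries, a replicate block, limma 3.58.1 on log2 of FPKM plus 0.1, an offset for GC content (lowess span 0.3), and each library left out. The GC offset without SPM replicate 2, and the gene lists without that library, were added after seeing the data. Exact tests and figures used Python 3.11.15, scipy 1.17.1 and matplotlib 3.10.9.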

Additional observations from a re-analysis of the deposited data

How the results depend on the processing

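The calls of DCM compared to CK numbered 16, 20 with no fold limit, and 11 (without DCM replicate 3) to 17 (without CK replicate 3) when 1 library was left out, and their median lay between -0.64 and -0.56 (the latter without CK replicate 1 or DCM replicate 3) over all alternatives. Those of SPM compared to CK numbered 17, 16 to 18 with 1 library left out, and 11 with the GC offset and without SPM replicate 2, and their median was -0.57 with the GC offset, with or without that library. In SPM compared to DCM, 0 genes were called, 3 with no fold limit, 1 with a fold limit of 1.3, 1 (Col4a3) with the filter of 1 CPM, and 0 (without DCM replicate 1, for one) to 1 (without SPM replicate 3) with 1 library left out. Replicate numbers did not pair the libraries, and with a replicate block 16, 0 and 18 genes were called in DCM compared to CK, SPM compared to DCM and SPM compared to CK, and Col26a1 was lost in the first (edgeR adjusted p = 0.0999). The log2 fold changes that turned sign were all of SPM compared to DCM and none was called. Col3a1 (0.04) became -0.02 with the replicate block and -0.03 by limma. With the GC offset the values were 0.04 for Col1a2, 0.03 for Col6a1, 0.02 for Col1a1, 0.15 for Col5a1 and 0.02 for Col18a1, and without SPM replicate 2 as well they were 0.05, 0.03, 0.03, 0.12 and 0.05 in this order. With 1 library left out the ranges were -0.24 to 0.28 for Col3a1, -0.24 to 0.00 for Col1a2, -0.43 to 0.04 for Col15a1, -0.22 to 0.11 for Col5a2, -0.10 to 0.07 for Col5a1, -0.38 to 0.03 for Col6a3, -0.41 to 0.08 for Col18a1, -0.01 to 0.09 for Col16a1 and -0.28 to 0.09 for Col4a4. The causes were not tested. Counting error and the spread of 3 libraries limit the rare chains most.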
